A study of Homo sapiens with 12 samples.

Results

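IL32, EBI3 and 6 other genes were followed in T-HESC, a human endometrial stromal cell line immortalised with telomerase. They encode cytokines or cytokine subunits, except IL15RA, which encodes a receptor chain of IL15. The 8 genes were taken by name (IL32, EBI3, IL12A, IL23A, IL15, IL15RA, IL7 and TSLP), and they were chosen by their function with the differences from vehicle on these arrays known, among which those of IL32 and EBI3 had been called. They were measured by 9 probes that the platform annotation assigns to a single gene, out of 53671 probes tested, and are 8 of the 18106 genes with such a probe. IL15RA had 2 probes and each other gene had 1. All 9 probes had a positive value on all 12 arrays and passed the filter. The cultures received TNFα at 5 ng/ml together with IL1β at 1 ng/ml, TNFα alone at 5 ng/ml, IL1β alone at 1 ng/ml, or vehicle, each for 48 h. All 4 groups had first been kept without serum for 24 h, and all grew with puromycin and an insulin, transferrin and selenium supplement. Each group had 3 single-colour CodeLink arrays, 1 for each of passages 13, 28 and 15, so the replicates are cultures of 1 immortalised line. The p-values measure the spread between these cultures, with passage left out of the main model and fitted as a block in an alternative. Culture and array cannot be told apart. The submitters set out to examine how these cytokines alter gene expression in this line, and listed endometriosis as a keyword.

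The cytokines of this set carry signals between tissue cells and lymphocytes. IL32 is a secreted inflammatory protein of human cells. EBI3 is a subunit that joins IL27 or IL12A to form secreted cytokines, IL35 in the case of IL12A. IL12A and IL23A each also join IL12B, which gives IL12 and IL23. IL15 is displayed to NK cells and T cells by its receptor chain IL15RA, and in the endometrium it supports uterine NK cells. IL7 keeps lymphocytes alive, and TSLP acts on dendritic cells and favours type 2 immunity. TNFα and IL1β bind different receptors that both activate NF-κB and AP-1, transcription factors that bind the promoters of many inflammatory genes.

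The 250 bases before the most upstream RefSeq start site are shown for IL32 and EBI3, the members with called differences from vehicle, and for IL23A, whose window held both motifs. They come from the RefSeq table of build GRCh38.p14, in which 6 of the 8 genes were used, and are written 5′ to 3′ on the strand of the gene. Capitals mark exact matches to the NF-κB consensus GGGRNWYYCC (κB) or to the AP-1 motif TGANTCA, searched on both strands. R is A or G, W is A or T, Y is C or T, and N is any base.
IL32, chr16:3065153-3065402, plus strand: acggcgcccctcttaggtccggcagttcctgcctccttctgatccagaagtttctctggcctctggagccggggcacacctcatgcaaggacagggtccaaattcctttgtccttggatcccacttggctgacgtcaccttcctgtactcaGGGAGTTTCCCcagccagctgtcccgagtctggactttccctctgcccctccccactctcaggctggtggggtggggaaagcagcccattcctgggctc
EBI3, chr19:4229273-4229522, plus strand: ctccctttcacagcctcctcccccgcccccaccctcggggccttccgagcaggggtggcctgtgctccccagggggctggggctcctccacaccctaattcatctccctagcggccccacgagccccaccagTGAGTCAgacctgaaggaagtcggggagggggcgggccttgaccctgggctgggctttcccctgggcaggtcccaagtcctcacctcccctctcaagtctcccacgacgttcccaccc
IL23A, chr12:56338634-56338883, plus strand: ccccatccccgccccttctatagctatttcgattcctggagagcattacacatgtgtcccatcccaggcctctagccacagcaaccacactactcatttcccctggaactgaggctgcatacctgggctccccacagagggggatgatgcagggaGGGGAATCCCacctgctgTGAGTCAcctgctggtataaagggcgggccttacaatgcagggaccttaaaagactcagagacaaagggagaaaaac

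The windows differed in the motif they held. IL32 had, before 1 of its 2 start sites, a κB match from −99 to −90, counted from the start site, and an overlapping match on the opposite strand from −98 to −89. EBI3 had an AP-1 match from −118 to −112 and no exact κB match, and near matches were not counted. IL23A had a κB match from −95 to −86 and an AP-1 match from −77 to −71. Of the members not printed, IL12A had a κB match from −44 to −35, and TSLP had one before 1 of its 3 start sites. IL15RA had an AP-1 match before 3 of its 4 start sites, from −123 to −117 before both start site 3 and start site 4. Whether the IL15RA matches are separate sites was not checked. No window searched held the core of the interferon-stimulated response element, taken as GAAA, any 2 bases and GAAA again on either strand. Among all 35116 windows of the table, 5.21% held the κB consensus, 6.57% the AP-1 motif and 3.02% the interferon-stimulated core. A match describes the letters of a window and does not show that a factor binds there. IL15 and IL7 were not searched.

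**Figure D1:**
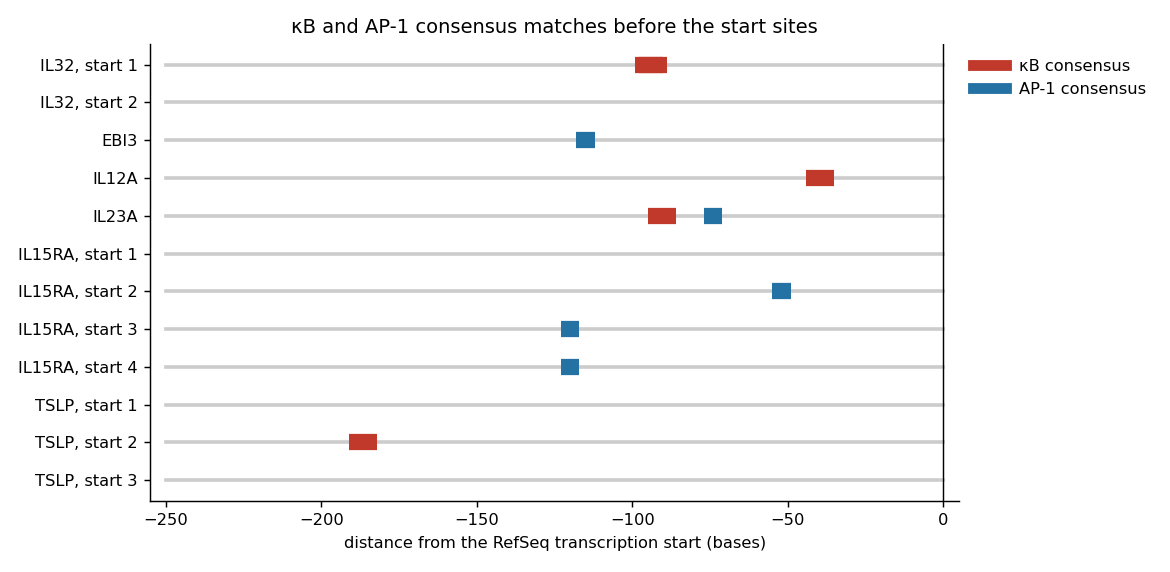
Motif matches in the 250 bases before each RefSeq start site of the 6 genes searched, by distance from the start in bases. Red marks are κB matches and blue marks are AP-1 matches on either strand; the IL32 κB match begins at −99 and the EBI3 AP-1 match at −118.

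Values are scaled intensities, close to 1 at the median of every array, and changes are read within a probe, since levels of different probes are not on a common scale. Between 52944 and 53507 probes per array were positive. A set of 3 arrays stood apart from the rest on the first principal component, which took 22.6% of the variance. Vehicle replicate 3 scored 171 there, TNFα replicate 3 scored 68.7 and IL1β replicate 2 scored 53.0, while vehicle replicate 1 scored −84.8 and the other 8 arrays −33.8 to −18.2. Over the 12 arrays the stromal markers DCN and COL1A1 measured 218 to 453 and 259 to 936. The stromal COL1A2, LUM, THY1 and COL3A1 measured 135 to 719, 114 to 208, 75.3 to 214 and 27.7 to 71.1. The stromal PDGFRB, ANPEP, PDGFRA and MME measured 5.86 to 33.4, 3.54 to 16.2, 2.66 to 11.1 and 1.18 to 8.44. Markers of other cell types also spread widely, with no intensity above the 97.3 of KRT19. The pan-leukocyte PTPRC measured 0.0015 to 0.280 and CD68 2.50 to 6.17. The lymphocyte markers CD79A and CD8A measured 15.0 to 35.2 and 3.89 to 7.36. The endothelial PECAM1 measured 7.99 to 17.3 and the epithelial KRT19 13.9 to 97.3. CD79A, CD8A, PECAM1 and KRT19 were the brightest of their lists, and other members of those lists ranged down to below the array median. CD3D measured 0.132 to 0.644, MS4A1 0.240 to 0.549, KDR 0.0096 to 0.280 and CLDN4 0.174 to 0.639, with GNLY, TEK and MUC1 among those above the median. CD14 and EPCAM each had 1 array at or below 0. These probes do not by themselves settle which cell types the cultures held.

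IL32 was higher with each treatment than with vehicle, and highest with TNFα alone. In passages 13, 28 and 15 it measured 126, 119 and 101 with TNFα+IL1β, 191, 192 and 196 with TNFα, 45.0, 48.0 and 23.3 with IL1β, and 7.17, 15.1 and 12.3 with vehicle. The 4 groups did not overlap, and their order was TNFα, TNFα+IL1β, IL1β and vehicle from high to low. The log2 values of the 3 TNFα arrays had an SD of 0.0206, and those of the 3 IL1β arrays an SD of 0.575. The log2 differences from vehicle were 3.39 with TNFα+IL1β, 4.13 with TNFα and 1.75 with IL1β (each ± 0.33, SE, n = 3 per group). In these bulk cultures more cells that make IL32 and more RNA per cell cannot be told apart.

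EBI3 followed the groups that received TNFα. It measured 11.5, 7.88 and 8.39 with TNFα+IL1β, 13.7, 8.82 and 10.8 with TNFα, 2.61, 2.38 and 1.98 with IL1β, and 0.992, 2.22 and 1.64 with vehicle. The TNFα+IL1β and TNFα arrays overlapped, as did the IL1β and vehicle arrays, and every array of the first pair lay above every array of the second. The log2 differences from vehicle were 2.57 with TNFα+IL1β, 2.83 with TNFα and 0.59 with IL1β (each ± 0.31, SE, n = 3 per group).

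**Figure D2:**
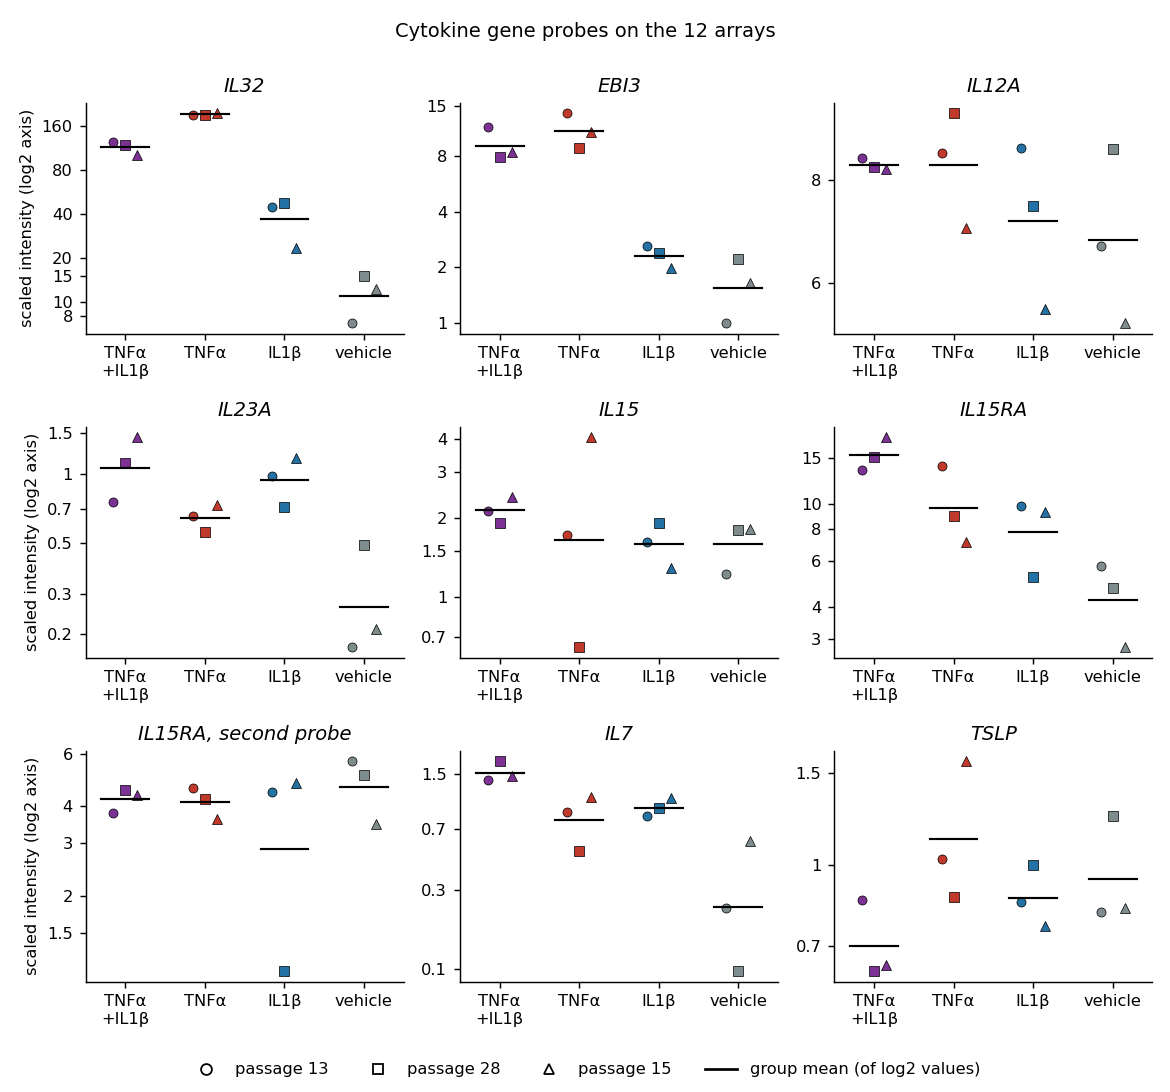
Scaled intensity (log2 axis) of the 9 probes on each array, by treatment, with a symbol for each passage and a bar for the mean of the log2 values. IL32 separates into 4 levels with TNFα alone on top, at 191 to 196; EBI3 separates into arrays with TNFα and arrays without; the 4 groups of IL12A overlap one another.

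IL12A, the partner of EBI3 in IL35, varied little. It measured 8.52, 8.29 and 8.26 with TNFα+IL1β, 8.64, 9.64 and 6.99 with TNFα, 8.76, 7.44 and 5.57 with IL1β, and 6.64, 8.73 and 5.36 with vehicle. Each treated group overlapped the vehicle arrays, and the log2 differences from vehicle were 0.30 with TNFα+IL1β, 0.30 with TNFα and 0.08 with IL1β (each ± 0.24, SE). IL23A, the subunit particular to IL23, lay near or below the array median. It measured 0.750, 1.11 and 1.44 with TNFα+IL1β, 0.651, 0.555 and 0.731 with TNFα, 0.980, 0.715 and 1.17 with IL1β, and 0.176, 0.487 and 0.211 with vehicle. All 9 treated arrays lay above the 3 vehicle arrays, with log2 differences of 2.02, 1.29 and 1.83 in the order TNFα+IL1β, TNFα and IL1β (each ± 0.39, SE).

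IL15 and 1 of the 2 probes of its receptor chain differed from each other in pattern. IL15 measured 2.13, 1.91 and 2.41 with TNFα+IL1β, 1.72, 0.642 and 4.06 with TNFα, 1.62, 1.91 and 1.29 with IL1β, and 1.23, 1.81 and 1.82 with vehicle. Its arrays with TNFα+IL1β lay just above all vehicle arrays, its TNFα arrays held both the lowest and the highest value of the 12, and its log2 differences from vehicle were 0.43, 0.05 and −0.00 (each ± 0.53, SE) in that order of treatments. The representative IL15RA probe, the one with the higher mean, measured 13.5, 15.2 and 18.1 with TNFα+IL1β, 14.0, 8.96 and 7.15 with TNFα, 9.84, 5.22 and 9.29 with IL1β, and 5.77, 4.73 and 2.79 with vehicle. The arrays with TNFα+IL1β and with TNFα lay above all vehicle arrays, whereas the IL1β arrays overlapped them, with log2 differences of 1.87, 1.19 and 0.88 (each ± 0.36, SE).

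The second IL15RA probe did not show these differences. It measured 3.79, 4.53 and 4.36 with TNFα+IL1β, 4.63, 4.24 and 3.61 with TNFα, 4.46, 1.11 and 4.78 with IL1β, and 5.67, 5.10 and 3.48 with vehicle. Its log2 differences from vehicle were −0.14, −0.17 and −0.69 (each ± 0.48, SE), where the representative probe gave positive differences. These differences depended on single arrays. With IL1β the difference was −0.0096 without IL1β replicate 2, still negative, and with TNFα+IL1β it turned to 0.0023 without vehicle replicate 1. With TNFα it stayed negative with 1 array left out, at −0.377 to −0.0248.

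IL7 was lowest with vehicle and near or below the array median except with TNFα+IL1β. It measured 1.37, 1.78 and 1.45 with TNFα+IL1β, 0.879, 0.512 and 1.08 with TNFα, 0.837, 0.931 and 1.07 with IL1β, and 0.234, 0.0970 and 0.593 with vehicle. The arrays with TNFα+IL1β and with IL1β lay above all vehicle arrays, and TNFα in passage 28 lay below vehicle in passage 15. The log2 differences were 2.68, 1.73 and 1.98 (each ± 0.54, SE) in the order TNFα+IL1β, TNFα and IL1β. They were 2.03, 1.08 and 1.34 without vehicle replicate 2, and 3.34, 2.39 and 2.64 without vehicle replicate 3. Adding 0.1 before the log step, which bears on low signals, gave 2.19 for IL7 and 1.66 for IL23A with TNFα+IL1β.

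TSLP lay near the array median, and its groups overlapped vehicle. It measured 0.856, 0.625 and 0.642 with TNFα+IL1β, 1.02, 0.867 and 1.58 with TNFα, 0.849, 0.999 and 0.763 with IL1β, and 0.811, 1.24 and 0.827 with vehicle. Its log2 differences from vehicle were −0.43, 0.25 and −0.12 (each ± 0.27, SE) in the order TNFα+IL1β, TNFα and IL1β.

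Counts against vehicle describe the members and support nothing, because the members were chosen with these differences known. With limma and an adjusted p under 0.05, IL32 and EBI3 were called higher with TNFα+IL1β (2 of 9 probes, against 0.188% of all probes called higher) and with TNFα (2 of 9, against 0.041%). With IL1β 0 of 9 were called, against 0.00559% of all probes, and 4 of the 9 had an unadjusted p under 0.05, as had 5191 of all 53671 probes. Higher on every array than on any vehicle array were 6 of 9 probes with TNFα+IL1β (7.02% of all probes), 4 with TNFα (3.72%) and 3 with IL1β (3.53%). None of the 9 was lower on every array, against 14.8%, 6.88% and 9.96% of all probes. The median log2 change of the 8 genes was 1.94, 1.24 and 0.73 in the same order of treatments, against −0.10, −0.02 and −0.15 over all 18106 genes. Passage as a block left 1 of the 2 calls with TNFα, that of IL32. Without TNFα+IL1β replicate 2, EBI3 was not called with TNFα+IL1β (log2 difference 2.68), and without vehicle replicate 3, TNFα replicate 1 or TNFα replicate 3 it was not called with TNFα (2.88, 2.67 and 2.84). IL32 was called in both comparisons whichever array was left out, and neither gene was called without the 3 arrays that stood apart, where the differences with TNFα+IL1β and with TNFα were 3.46 and 4.20 for IL32 and 2.62 and 2.89 for EBI3.

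The treated groups were next compared with one another, which asks what TNFα adds to IL1β, what IL1β adds to TNFα, and how the single cytokines differ. These comparisons share arrays with the known ones and are not independent of how the genes were picked. With TNFα+IL1β, IL32 was higher than with IL1β alone by 1.64 on the log2 scale (95% interval 0.91 to 2.37) and EBI3 by 1.99 (1.30 to 2.67), and for both genes every array lay above every IL1β array. Over all probes limma gave adjusted p = 0.479 for IL32 and 0.237 for EBI3, so neither passed. The representative probe of IL15RA, the chain that displays IL15, was higher on every array too, by 0.99 (0.19 to 1.79; adjusted p = 1.00), as was IL7 by 0.70 (−0.51 to 1.90; adjusted p = 1.00). The second IL15RA probe gave 0.55 (−0.51 to 1.62) with overlapping arrays. Limma called 0 of the 9 probes and 0% of all probes in this comparison, with 3 of the 9 and 2347 of all 53671 at an unadjusted p under 0.05. The 4 of 9 that were higher on every array stand beside 8.09% of all probes, and none of the 9 was lower on every array (6.7% of all probes).

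TNFα exceeded IL1β for the same leading members. IL32 was higher with TNFα than with IL1β by 2.39 (1.66 to 3.11) and EBI3 by 2.24 (1.56 to 2.93), on every array, and limma gave adjusted p = 0.222 for each. Both missed the threshold, as did every other member, and 0% of all probes were called; 2 of the 9 and 2706 of all probes had an unadjusted p under 0.05. The 2 of 9 that were higher on every array stand beside 10.8% of all probes, and none was lower on every array (3.91%). IL23A ran the other way at −0.55 (−1.41 to 0.32; adjusted p = 0.913) and IL7 at −0.25 (−1.46 to 0.95; adjusted p = 0.979), with overlapping arrays.

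IL1β on top of TNFα went with less IL32. The arrays with TNFα+IL1β all lay below those with TNFα alone, by −0.75 (−1.48 to −0.02; limma adjusted p = 0.979), and quantile normalization gave −0.43. TSLP was also lower on every array, by −0.68 (−1.29 to −0.07; adjusted p = 0.966). Its nearest arrays almost met, at 0.856 with TNFα+IL1β and 0.867 with TNFα. With 1 array left out the TSLP difference ran from −0.86 to −0.43. IL7 was higher on every array by 0.95 (−0.26 to 2.16; adjusted p = 0.981) and IL23A by 0.73 (−0.14 to 1.60; adjusted p = 0.981). EBI3 differed by −0.26 (−0.94 to 0.43; adjusted p = 0.987) with overlapping arrays. Limma called 0 of the 9 probes, against 0.00186% of all probes, with 2 of the 9 and 2729 of all probes at an unadjusted p under 0.05. The 2 members higher on every array stand beside 6.5% of all probes, and the 2 lower beside 14.7%.

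**Figure D3:**
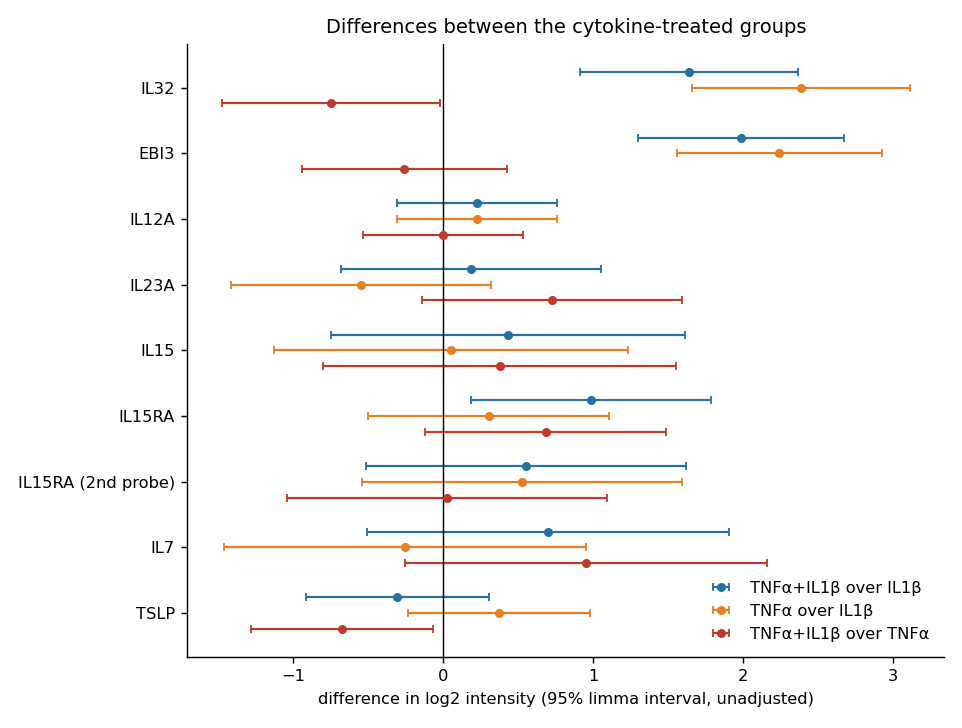
Differences in log2 intensity between the treated groups for the 9 probes, with 95% limma intervals that are not adjusted for the number of probes. For IL32 and EBI3 the TNFα+IL1β over IL1β and TNFα over IL1β intervals lie above 0; for IL32 and TSLP the TNFα+IL1β over TNFα interval lies below 0.

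The effect of IL1β was then set side by side with and without TNFα. Within passages 13, 28 and 15, IL1β went with an IL32 difference of −0.60, −0.69 and −0.95 in the presence of TNFα, and of 2.65, 1.67 and 0.93 in its absence. The difference between these effects was −2.50 ± 0.46 (SE; 95% interval −3.53 to −1.47), and limma over all probes gave adjusted p = 0.843, with an unadjusted p of 0.000293. This difference contains the TNFα difference from vehicle, with its sign reversed, which was known when the genes were chosen. It is therefore not independent of that choice. For EBI3 the effects were −0.25, −0.16 and −0.37 with TNFα and 1.39, 0.10 and 0.27 without it, a difference of −0.85 ± 0.44 (−1.81 to 0.12; adjusted p = 1.00). IL23A gave −1.11 (−2.33 to 0.12) and IL7 −1.03 (−2.74 to 0.68), neither passing the threshold. Limma called 0 of the 9 probes and 0% of all probes for this difference, and 1 of the 9 and 1927 of all probes had an unadjusted p under 0.05.

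**Figure D4:**
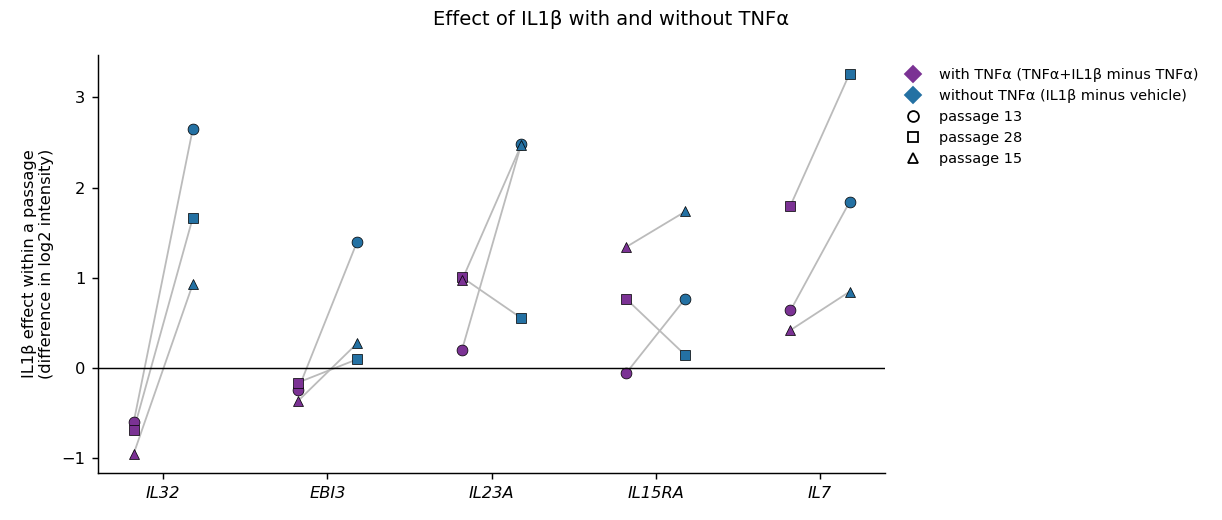
Effect of IL1β on log2 intensity within each passage, in the presence of TNFα (purple, TNFα+IL1β minus TNFα) and in its absence (blue, IL1β minus vehicle), with lines joining a passage. IL32 lies below 0 with TNFα and above 0 without it in all 3 passages, and so does EBI3 by smaller amounts.

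The genes around the members were given by 4 lists, the other cytokine ligands and subunits, the receptors, the JAK, STAT and SOCS genes that carry the receptor signal, and the NF-κB and IRF regulators of cytokine genes. Limma called 0 of their 44 measured genes in any comparison, with 10 at an unadjusted p under 0.05 for TNFα+IL1β over vehicle (6911 of all 53671 probes) and 1 to 6 in the other comparisons (1927 to 5191 probes). With TNFα+IL1β against vehicle, 10 of 11 ligands were measured, with a median log2 change of −0.22, against −0.10 over all genes. The members with the largest differences were IL21, IL16 and IL10, none called. IL21, a T cell cytokine, is given without a difference, since its log2 signals averaged −4.13 with TNFα+IL1β (n = 2, the third array having no usable value) and −2.24 with vehicle (n = 3), far below the array median. IL16, a chemoattractant for CD4+ cells, gave −1.12 ± 0.80 (SE) and the anti-inflammatory IL10 0.77 ± 0.48. Their mean log2 signals also lay below the array median. With TNFα+IL1β and with vehicle they were −1.42 and −0.30 for IL16, and −0.72 and −1.49 for IL10. The subunits that EBI3 and IL23A need were named after their values were seen: IL27 gave 0.57 ± 0.23 (limma adjusted p = 0.339) and IL12B −0.41 ± 0.41 (adjusted p = 0.723). IL27 lay below the array median too, at mean log2 signals of −0.18 with TNFα+IL1β and −0.76 with vehicle.

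Of 13 receptors, 11 were measured, with a median of −0.01. IL7R, the receptor chain that IL7 and TSLP share, was 1.58 ± 0.34 higher with TNFα+IL1β (adjusted p = 0.123), on every array. IL2RA gave −0.88 ± 0.56 and CRLF2, the chain particular to TSLP, by 0.57 ± 0.47, and both overlapped vehicle. Of 15 JAK, STAT and SOCS genes 13 were measured, with a median of 0.28, and STAT3, STAT5A and STAT4 gave 0.92 ± 0.64, 0.84 ± 0.53 and 0.70 ± 0.36.

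All 10 NF-κB and IRF genes were measured, with a median of 0.51, and 5 of 10 were higher on every array with TNFα+IL1β than with vehicle, beside 7.02% of all probes. The interferon regulator IRF7 gave 1.76 ± 0.35 (limma adjusted p = 0.0926), the NF-κB subunit NFKB2 1.76 ± 0.47 (0.183) and the subunit RELB 1.68 ± 0.42 (0.167), and none passed.

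**Figure D5:**
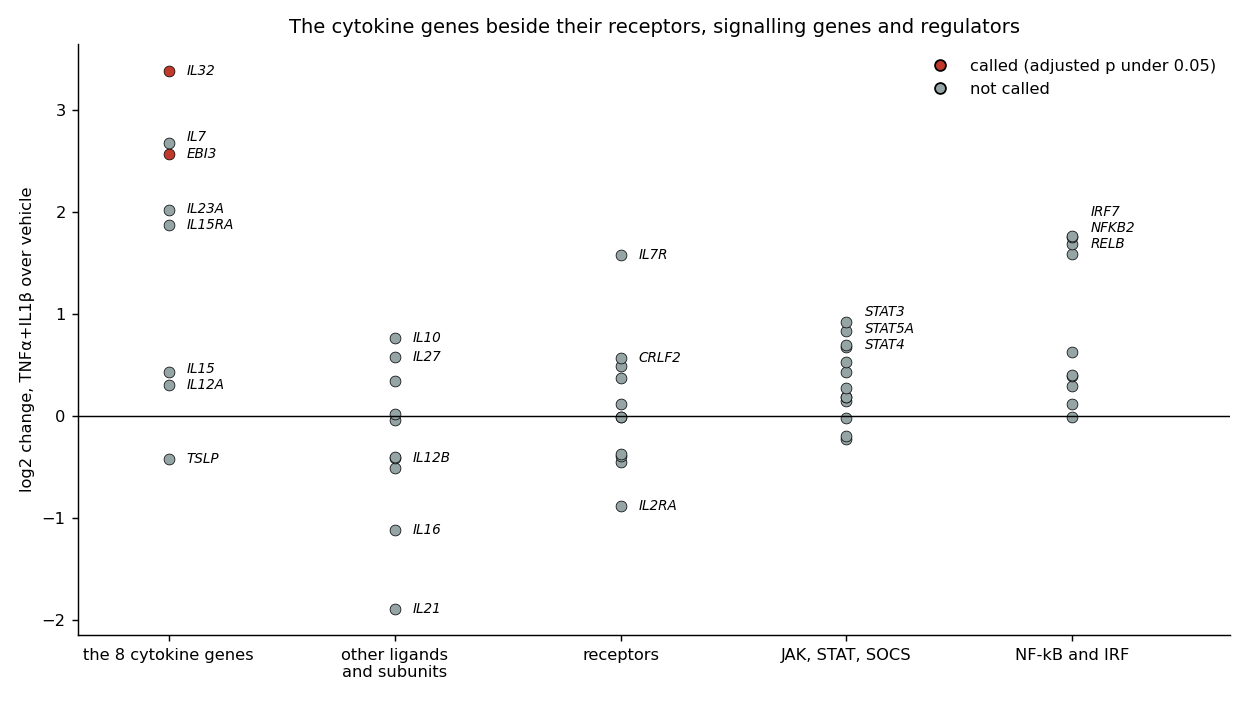
Log2 change with TNFα+IL1β over vehicle for the 8 member genes and the 4 lists of related genes, 1 point per gene, with called genes in red. IL32 (3.39) and EBI3 (2.57) are called, and no gene of the other lists is.

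Genes with patterns like those of IL32 and EBI3 were listed by Pearson r of log2 values over the same 12 arrays, among 16994 genes. The points share treatments and arrays, so r is a description. For IL32 these were EBI3 (0.957), the tight junction protein CLDN1 (0.955), the interferon-induced IFI35 (0.947), the adhesion molecule ICAM2 (0.940) and the receptor tyrosine kinase ligand ALKAL2 (0.939). For EBI3 they were ICAM2 (0.967), IFI35 (0.961), IL32 (0.957), the NK receptor ligand ULBP2 (0.938) and the ubiquitin-like UBD (0.937).

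Markers of other cell types that could hold these cytokines, and of stromal cells, were read on the same arrays. Limma called 0 of the 38 markers in any comparison. At an unadjusted p under 0.05 there were 5 of the 38 for TNFα+IL1β over vehicle, where 6911 of all 53671 probes were, and 0 to 4 in the other comparisons (1927 to 5191 probes). The summed intensity of the T and NK markers (8 of 8 measured) was 13.1 to 14.0 with TNFα+IL1β, 13.0 to 14.9 with TNFα, 10.7 to 13.6 with IL1β and 12.1 to 15.8 with vehicle. For the myeloid and pan-leukocyte markers (6 of 7) it was 6.12 to 7.08, 3.95 to 5.61, 3.48 to 6.56 and 3.47 to 7.54 in the same groups. Both sums overlapped vehicle in every treated group. For the B cell markers (3 of 4) the sums were 21.8 to 23.4 with TNFα+IL1β, 26.0 to 30.8 with TNFα, 21.4 to 23.1 with IL1β and 15.4 to 36.0 with vehicle, most of it from CD79A. For the endothelial markers (5 of 5) they were 15.5 to 16.6, 16.6 to 19.7, 13.8 to 16.4 and 16.2 to 20.9, and for the stromal markers (10 of 12) 1513 to 1678, 1008 to 1856, 1004 to 1730 and 1046 to 2577. The epithelial sum (6 of 7), most of it from KRT19, moved with treatment. It was 36.6 to 37.2 with TNFα+IL1β and 21.1 to 58.9 with IL1β, below all vehicle arrays at 77.6 to 107, and 53.4 to 96.1 with TNFα, and its part in the IL32 and EBI3 values was not tested.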

How the data were processed

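Total RNA of 12 T-HESC cultures was labelled and hybridised to 12 single-colour arrays. The deposited values are linear intensities, and how the authors processed the images, background and scaling is not stated in the labels read here. That each array was scaled to its median was read from the values, whose array medians differ by at most 0.05 on the log2 scale. Missing codes (0.716% of values) and values at or below 0 (1.1%) were left out, the rest were log2-transformed, and no further normalization was applied. Of 54359 probes, 53671 had at least 2 values in every group and were tested. No detection calls were used.

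A model with 1 mean per group was fitted in limma 3.58.1 (R 4.3.3) to the 12 arrays together, with 8 residual degrees of freedom before moderation and Benjamini-Hochberg adjustment over all tested probes. An exact permutation test of 3 against 3 arrays cannot give a two-sided p below 0.1. Where a gene had several single-gene probes, the brightest on average represents it. The limma script was tested on simulated data with independent noise and shifts in the TNFα group only. Those data held no passage differences or outlying arrays, so the test does not bear on either.

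The members and gene lists were chosen with earlier results of these data known. Named genes are the 8 members, from each list every called gene and up to 3 with the largest change with TNFα+IL1β over vehicle, and the 5 genes most correlated with IL32 and with EBI3. Symbols come from the platform annotation and RefSeq. Same-numbered replicates share a passage per the labels. After removal of group means their 18 pairs correlated at a mean of 0.0071 (−0.196 to 0.310), and 36 pairs with different numbers at −0.0029. Removing group means ties the second value to the first, so it is not an independent comparison. The passage block, other scalings, offsets, filters and left-out arrays were alternatives.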

Additional observations from a re-analysis of the deposited data

Results flagged for a closer look

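The IL1β effect on IL32 had opposite signs with and without TNFα in all 3 passages: −0.75 with TNFα and 1.75 without it, a difference of −2.50 on the log2 scale that limma did not call (adjusted p = 0.843). EBI3 showed the same arrangement in all 3 passages, at −0.26 with TNFα and 0.59 without it, a difference of −0.85 that was not called (adjusted p = 1.00). For both genes this difference contains the TNFα difference from vehicle, known when the genes were chosen, and is a description.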

How the results depend on the processing

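The number of arrays, 3 per group, and the signals of IL23A, IL7 and TSLP near or below the array median limit these results. With TNFα+IL1β over vehicle, 2 member probes were called, 3 with quantile normalization (IL15RA added), 4 without dim probes (IL15RA and IL23A added), 5 with a trended and robust variance prior (IL15RA, IL23A and IL7 added), 0 with only the compared groups, 0 without the 3 arrays that stood apart and 1 to 3 with 1 array left out. The count was 3 without vehicle replicate 2, which added IL23A, or vehicle replicate 3, which added IL7, and 1 without TNFα+IL1β replicate 2. Where IL15RA was added, it was by its representative probe. With TNFα over vehicle 2 were called, 1 with the replicate block (passage), 0 with only the compared groups, 0 without the 3 arrays and 1 to 2 with 1 array left out. In the other 5 comparisons 0 member probes were called under every alternative run. Over all probes, other alternatives called 24 to 235 with TNFα+IL1β over vehicle (133 in the main analysis) and 0 to 57 with TNFα over vehicle (25), and leaving out 1 array gave 30 to 139 and 10 to 45. With IL1β over vehicle they called 0 to 8 and 0 to 10 (3 in the main analysis), and in the other 4 comparisons at most 4 (0 or 1). The IL32 difference between IL1β effects was −2.83 to −2.19 with 1 array left out.

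The replicate block changed no other member call. No called difference changed sign, but uncalled ones did, and the cause was not tested. Against vehicle the sign turned under at least 1 alternative for IL12A with IL1β, IL15 with TNFα and with IL1β, TSLP with TNFα and with IL1β, and the second IL15RA probe with TNFα+IL1β. With 1 array left out, TNFα+IL1β over TNFα ran from −0.13 to 0.10 for IL12A, −0.30 to 1.03 for IL15 and −0.0706 to 0.107 for the second IL15RA probe. TNFα+IL1β over IL1β ran from −0.0353 to 0.434 for IL23A and −0.13 to 0.92 for the second IL15RA probe. TNFα over IL1β ran from −0.60 to 0.73 for IL15, −0.16 to 0.89 for the second IL15RA probe and −0.486 to 0.0551 for IL7. The difference between IL1β effects ran from −0.258 to 0.0947 for IL12A, −0.30 to 1.03 for IL15 and −0.49 to 0.10 for IL15RA. Without the 3 arrays that stood apart, TNFα+IL1β over TNFα was −0.13 for IL12A and −0.0706 for the second IL15RA probe. TNFα+IL1β over IL1β was −0.0118 for IL23A and −0.13 for the second IL15RA probe, and TNFα over IL1β was −0.46 for IL15 and −0.0606 for the second IL15RA probe.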

Other observations

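Across the 12 arrays, the members other than IL32 and EBI3 that moved most alike were IL15RA and IL23A (Pearson r 0.747), followed by IL7 and IL23A (0.649) and IL15RA and IL7 (0.613). TSLP ran from −0.410 with IL15RA to 0.372 with IL15. Each gene was read by its representative probe. The points share treatments and arrays, and r is given as a description.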
